A study of Homo sapiens with 30 samples.

Results

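The survival and STAT5 signalling genes described here were PIM1, BCL2L1, MCL1, SOCS2, CISH, STAT5A, STAT5B, CCND2 and CCND3. They were chosen by name, and their peaks were all those overlapping the 5 kb on either side of 10 transcription starts in hg19, CCND3 having 2 starts 107024 bp apart. These windows held 371 of the 745005 peaks in 30 SEACR lists and 6 MACS2 lists. The peaks came from CUT&Tag of K562, an established line from a chronic myeloid leukaemia that carries the BCR-ABL1 fusion, with 500000 growing cells per experiment. CUT&Tag uses an antibody to bring a transposase to chromatin, so that reads gather where the antibody binds.

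All libraries were labelled K562, and every condition had 1 library. H3K27ac was profiled in 25 libraries with 4 antibodies: Abcam-ab177178, Abcam-ab4729, Active Motif 39133 and Diagenode C15410196. H3K27me3 was profiled in 5 libraries with CST9733. At 15 cycles of PCR with SDS extraction there were 5 untreated H3K27ac libraries, 4 libraries with trichostatin A (TSA, an inhibitor of histone deacetylases) and 1 untreated H3K27me3 library. Diagenode was used there at 1/50 and at 1/100, and all other antibodies at 1/100. The other 16 H3K27ac and 4 H3K27me3 libraries, all untreated, crossed each antibody (Diagenode at 1/50) with SDS or column extraction and with 11 or 13 cycles. The labels say that reads of these 20 libraries were brought to equal depth before calling, and they state no depth for the 15-cycle lists. With single libraries, any p-value below measures the spread among antibodies and protocols, not among repeated cultures. The H3K27me3 lists came from CST9733 alone, so their spread is among protocols, and mark and antibody cannot be told apart. The test between marks also treated lists that share an antibody as independent.

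STAT5A and STAT5B are transcription factors that are phosphorylated by JAK kinases below cytokine receptors, and in BCR-ABL1 cells by a constitutively active kinase. They bind as dimers to a palindromic sequence with TTC and GAA half-sites. Known STAT5 targets in blood cells include CISH and SOCS2, which feed back to dampen the receptors. PIM1 is a survival kinase, BCL2L1 and MCL1 are anti-apoptotic proteins of the BCL2 family, and CCND2 and CCND3 are D-type cyclins. H3K27ac marks active promoters and enhancers, and H3K27me3 marks regions held silent by Polycomb.

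Sequences are shown for 3 promoters because CISH carries the STAT-type palindrome, and PIM1 and STAT5B, both rich in CG, differ in how often they were marked. They are the 250 bases before the RefSeq start in GRCh38.p14, 5′ to 3′ on the strand of the gene, and the peaks are in hg19, so the positions are not interchangeable. In CISH (chr3:50611775-50612024, minus strand) capitals mark every TTCNNNGAA. In PIM1 (chr6:37169902-37170151, plus strand) and STAT5B (chr17:42276392-42276641, minus strand) capitals mark CG dinucleotides.
CISH: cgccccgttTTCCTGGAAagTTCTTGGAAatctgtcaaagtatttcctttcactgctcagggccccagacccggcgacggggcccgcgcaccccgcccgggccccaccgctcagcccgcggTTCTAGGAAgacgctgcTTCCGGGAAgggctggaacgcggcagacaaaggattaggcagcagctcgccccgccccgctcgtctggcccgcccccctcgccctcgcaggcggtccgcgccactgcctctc
PIM1: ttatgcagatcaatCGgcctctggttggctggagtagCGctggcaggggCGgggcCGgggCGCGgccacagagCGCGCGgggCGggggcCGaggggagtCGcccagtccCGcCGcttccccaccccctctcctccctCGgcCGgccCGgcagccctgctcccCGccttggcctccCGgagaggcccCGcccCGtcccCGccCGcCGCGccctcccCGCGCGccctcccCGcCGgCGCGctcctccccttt
STAT5B: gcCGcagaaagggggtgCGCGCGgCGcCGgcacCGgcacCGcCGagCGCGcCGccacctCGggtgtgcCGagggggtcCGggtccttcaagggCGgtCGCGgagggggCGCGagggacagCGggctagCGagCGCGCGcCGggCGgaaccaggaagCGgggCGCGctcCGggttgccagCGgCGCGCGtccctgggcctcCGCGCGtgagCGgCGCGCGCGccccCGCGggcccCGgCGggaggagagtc

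RefSeq promoters of 300 bases, from 250 before to 50 after the start, matched 6 of the 9 genes, with 11 promoters. CISH alone among these 11 held TTCNNNGAA, the STAT-type palindrome, which reads the same on both strands. It held 4 copies, TTCCTGGAA from -241, TTCTTGGAA from -230, TTCTAGGAA from -129 and TTCCGGGAA from -112 relative to the start. At least 1 copy was present in 7.66% of all 35116 promoters in the table, and 7 promoters held 4 or more. GATAA, searched on both strands, was in none of the 11 and in 22.7% of all promoters. CG dinucleotides numbered 33 in the CISH promoter, 39 in PIM1 and 55 in STAT5B, against a median of 14 over all promoters. The promoters of STAT5A held 3, 5 and 37, those of CCND3 29, 37 and 3, and those of BCL2L1 20 and 16. A relation between CG and marking was not tested. STAT5B thus had the most CG of the promoters shown, while its start was marked in 10 of 25 H3K27ac lists and that of PIM1 in 24.

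A start is called marked where a SEACR peak overlaps its window by at least 1 bp. The 25 H3K27ac lists marked 1 to 10 of the 10 starts, with a median of 7 (mean 6.88 ± 1.74, SD, n = 25). That is 172 of 250 start and list combinations, and over 303463 genome tiles of the same length, 10001 bp, the same lists had a peak in 2.46% of combinations (0.973% to 6.18% per list). The tiles are not matched for promoters. PIM1 and the downstream start of CCND3 were each marked in 24 of 25 lists, and BCL2L1, CISH and STAT5A each in 23. A peak in at least 23 of these lists was found in 0.339% of all tiles. SOCS2 was marked in 19 lists, MCL1 in 13, STAT5B in 10, the upstream start of CCND3 in 7 and CCND2 in 6. The untreated Active Motif list at 15 cycles stood apart. It marked BCL2L1 and no other start, and had peaks in 0.973% of tiles.

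**Figure D1:**
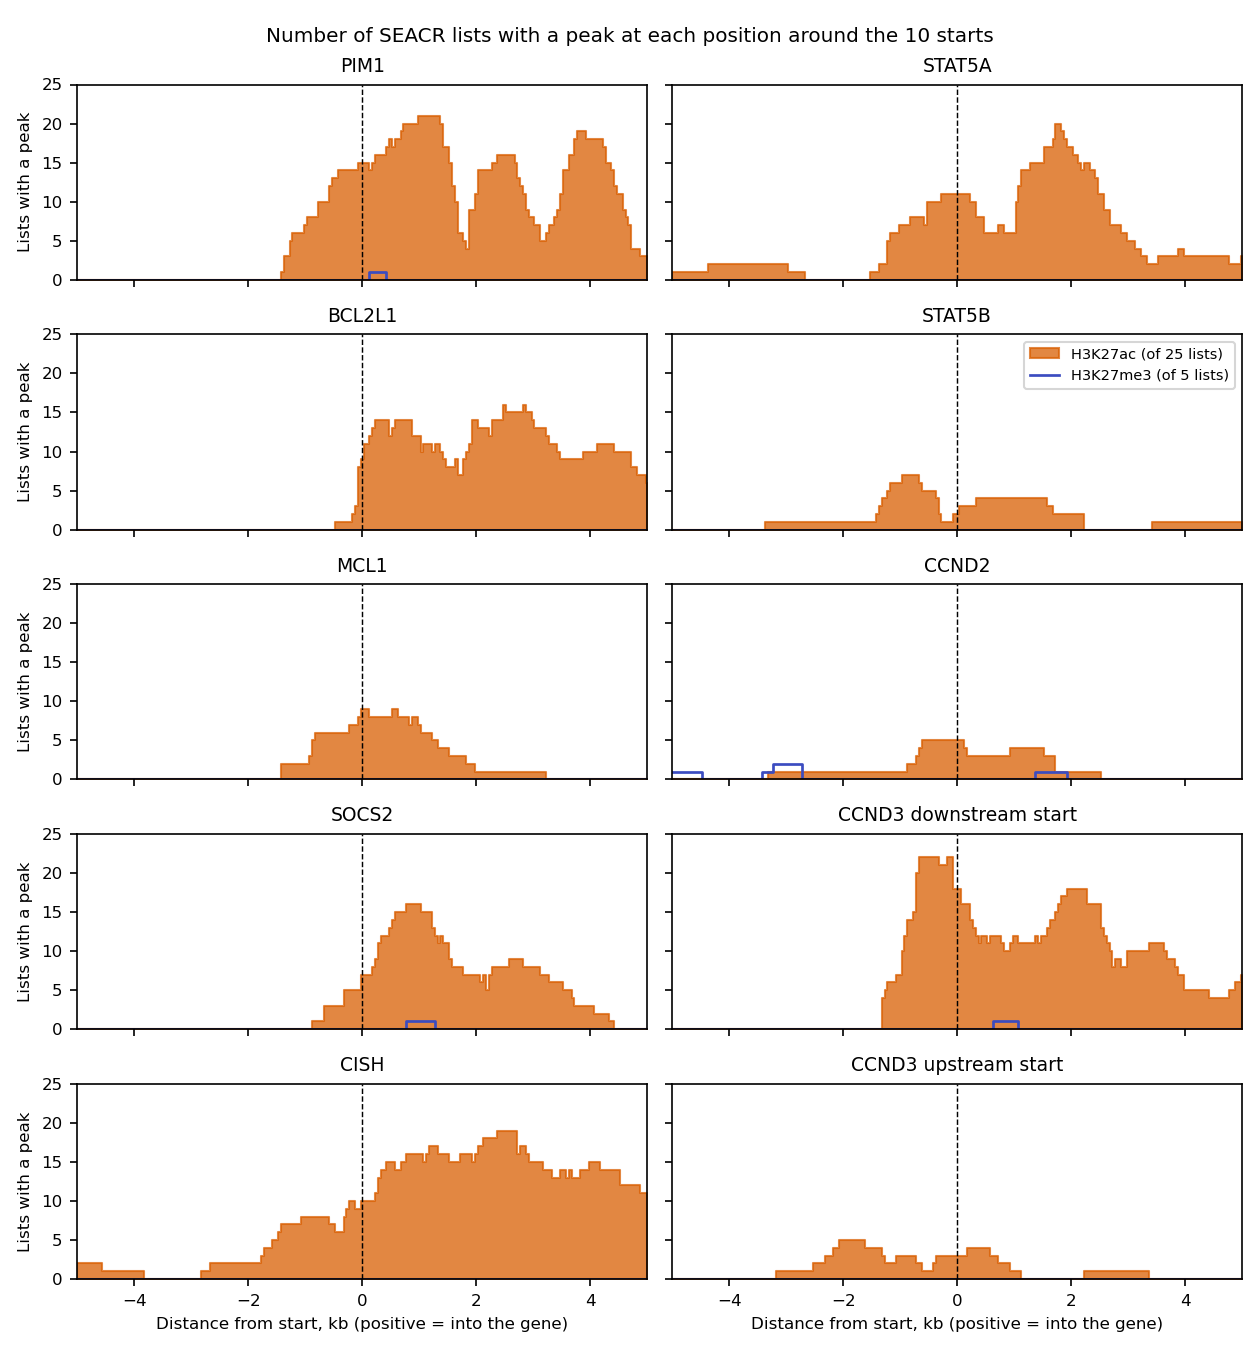
Number of SEACR lists with a peak at each position within 5 kb of the 10 starts, in kb from the start with positive values into the gene; filled areas are the 25 H3K27ac lists and lines the 5 H3K27me3 lists. PIM1 reached 21 H3K27ac lists, the downstream start of CCND3 22, and CCND2 and the upstream start of CCND3 5 each.

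Most of the peak-covered bases lay downstream of the starts used here. For BCL2L1, STAT5A and CCND3, RefSeq on GRCh38 lists further starts close enough to fall in the same window. Cover at those starts was not told apart. Of the covered bases in the H3K27ac lists, 98.1% lay downstream of the start at BCL2L1, 92.6% at SOCS2, 83.4% at PIM1 and 82.1% at CISH. The share was 72.2% at the downstream start of CCND3, 51.5% at STAT5B and 33.4% at the upstream start of CCND3. The peaks counted included 8 H3K27ac peaks with their nearest edge 4 to 5 kb from a start, and 21 more lay 5 to 6 kb away. The farthest counted was 4983 bp away and the nearest left out 5050 bp.

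CISH, the feedback inhibitor named for its induction by cytokines (start at position 50649262 of chromosome 3, minus strand), had the highest median rank of the 10 starts. Rank was taken by total signal within each list, as a percentile in which 100 is the strongest peak. Total signal adds up over a peak's width, and ranks of lists with different lengths are given only as a description. The strongest CISH peak had a median percentile of 95.5 over its 23 lists, from 50.2 to 99.6, and was in the top 10% of 15 lists. In the untreated 15-cycle lists the percentile was 98.3 with ab177178, 99.3 with ab4729, 99.0 with Diagenode at 1/100 and 99.5 at 1/50. Those peaks were wide, 4582, 16492, 9323 and 15469 bp, and the widest reached from 2817 bp upstream to 13674 bp downstream of the start. Their maximum lay 2615 bp downstream of the start with ab177178 and 2650 bp with Diagenode at 1/50. With ab4729 and Diagenode at 1/100 it lay 9744 and 10654 bp downstream, outside the window, so the ranks of 99.3 and 99.0 belong to peaks that were highest away from the CISH start. Over all 23 lists the width had a median of 2540 bp, 2.42 times the median peak of the same list. The base most often covered lay 2390 to 2707 bp into the gene (chr3:50646555-50646872 in hg19), in 19 lists, and the start itself was covered in 10. In GRCh38 the gene span of MAPKAPK3 overlaps that of CISH by 255 bp at this end, so that peaks over the start cannot be assigned to either gene alone.

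The protocol with column extraction and 11 cycles gave the lowest CISH ranks as a set. Percentiles there were 55.0 with ab177178, 51.8 with ab4729, 50.2 with Active Motif and 57.4 with Diagenode. The other 12 downsampled lists ran from 50.3, in the ab4729 list with SDS and 13 cycles, to 99.6, in the ab177178 list with SDS and 13 cycles. The next lowest of them were Active Motif with column extraction at 13 cycles, at 64.1, and Active Motif with SDS at 11 cycles, at 72.5. The 2 ranges overlapped through the ab4729 list alone. This protocol was picked out after the values were seen. Of the other starts marked in at least 19 of the 25 lists, STAT5A alone also had its lowest median percentile there. PIM1, BCL2L1, SOCS2 and the downstream start of CCND3 had theirs in another protocol. The difference between protocols in rank was not tested.

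SOCS2, the other feedback inhibitor (position 93963598 of chromosome 12, plus strand), ranked lower. Its 19 marked lists had a median percentile of 79.8, from 3.57 to 89.8, and none was in the top 10% of its list. Covered length ran from 0 to 5281 bp with a median of 1507 bp over 25 lists. The base most often covered lay 762 to 1020 bp into the gene, in 16 lists. SOCS2 was missing from the untreated ab177178 list at 15 cycles, which marked 8 other starts, and present in all 4 downsampled ab177178 lists with 1507 to 3292 bp.

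PIM1 (position 37137922 of chromosome 6, plus strand) carried several separate patches of H3K27ac. The number of lists with a peak reached 21 at 964 to 1357 bp into the gene (chr6:37138886-37139279 in hg19). It dropped to 5 at 1800 bp, returned to 16 at 2400 bp, dropped to 5 at 3200 bp and reached 19 at 3900 bp. The strongest PIM1 peak had a median percentile of 88.5, from 9.53 to 98.6, and was in the top 10% of 10 lists. Its width had a median of 1788 bp and reached 10405 bp in the untreated ab4729 list at 15 cycles. The lowest percentile, 9.53, came from ab4729 with SDS at 11 cycles and the highest, 98.6, from the same antibody and extraction at 13 cycles.

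BCL2L1 (position 30311746 of chromosome 20, minus strand) was marked in 23 lists and almost wholly on the gene side. Its strongest peak had a median percentile of 78.1, from 5.18 to 97.3, and was in the top 10% of 7 lists. At 15 cycles without TSA the percentile was 96.2 with ab177178, 97.2 with ab4729, 39.8 with Active Motif, 82.6 with Diagenode at 1/100 and 97.3 at 1/50. The widest peak measured 14191 bp, in the ab4729 list. BCL2L1 was absent from the SDS lists at 13 cycles of ab4729 and Active Motif.

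MCL1, the shorter-lived anti-apoptotic relative (position 150552214 of chromosome 1, minus strand), was weaker. It was marked in 13 of 25 lists, with a median percentile of 35.4, and the highest was 79.3 in the untreated ab4729 list at 15 cycles. In the 13 marked lists the strongest peak had a median width of 1055 bp, 1.13 times the median of its list. The bases most often covered, in 10 lists, began 82 bp after the start. At least 13 of the 25 lists had a peak in 1.75% of all tiles.

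The transducers STAT5A and STAT5B start 11141 bp apart and point away from each other on chromosome 17. In GRCh38 their gene spans nevertheless overlap by 932 bp, so that peaks over the shared stretch cannot be assigned to either gene alone. STAT5A (position 40439565, plus strand) was marked in 23 lists with a median percentile of 63.3, from 1.01 to 96.7. The bases most often covered lay 1746 to 1825 bp into the gene, in 20 lists, while the start itself was covered in 11. STAT5B (position 40428424, minus strand) was marked in 10 lists with a median percentile of 19.3, and its highest was 60.8 in the Active Motif list with SDS at 11 cycles. Its start was covered in 2 lists, and the stretch covered by most, 7 lists, lay between -954 and -684. The downsampled ab177178, ab4729 and Active Motif lists each marked it in 2 of 4, and the Diagenode lists in 0 of 4, a difference that was not tested. At 15 cycles Diagenode did mark STAT5B, with 3912 bp at 1/50 without TSA and 1051 bp at 1/100 with TSA.

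CCND3 and CCND2 encode D-type cyclins that drive entry into the cell cycle. At the downstream start of CCND3 (position 41909586 of chromosome 6, minus strand) 24 lists had a peak, with a median percentile of 76.8 and 8 lists in the top 10%. The bases most often covered, in 22 lists, lay just before the start, between -690 and -100. At the upstream start of CCND3 (position 42016610) 7 lists had a peak. The bases covered by most of these, 5 lists, lay between -2059 and -1612. In GRCh38 the gene TAF8 lies 489 bp beyond the gene span of CCND3 at that end, so these peaks cannot be assigned to either gene alone. CCND2 (position 4382902 of chromosome 12, plus strand) was marked in 6 lists, 3 of them from ab4729. The untreated ab4729 list at 15 cycles covered 5887 bp there at percentile 74.3, and the untreated Diagenode list at 1/50 covered 2394 bp at percentile 57.9.

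**Figure D2:**
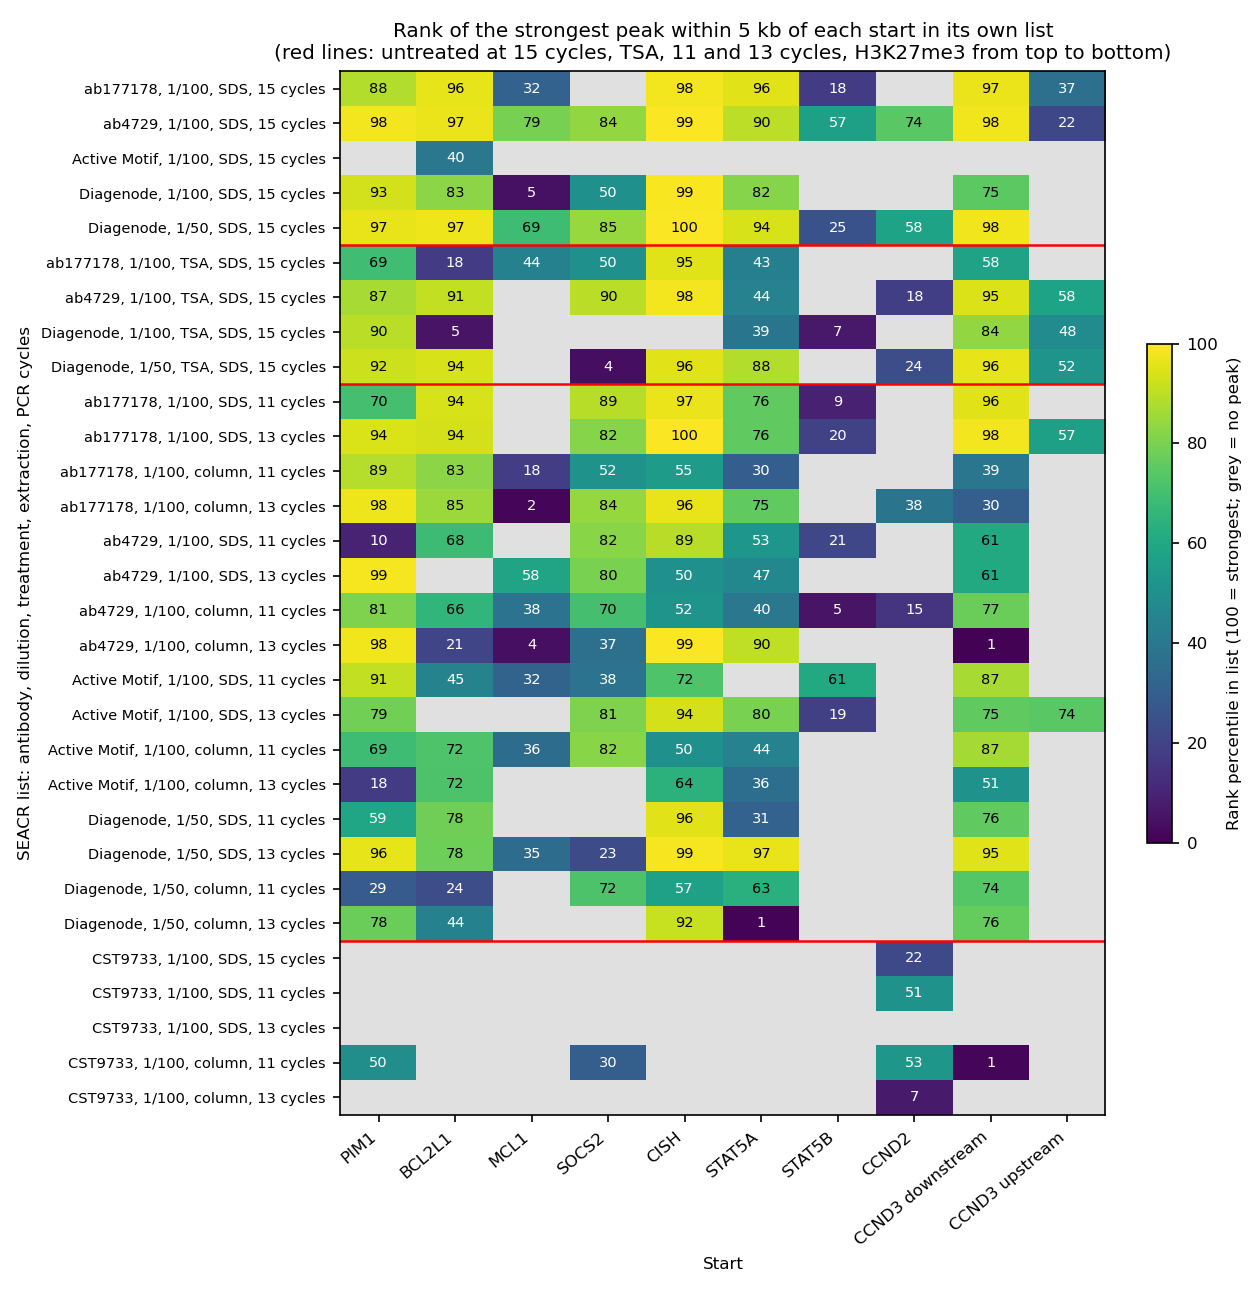
Rank percentile, by total signal, of the strongest peak within 5 kb of each start in each of the 30 SEACR lists (100 is the strongest peak of a list, grey is no peak); red lines part untreated 15-cycle, TSA, 11- and 13-cycle H3K27ac lists and H3K27me3 lists. CISH sits above 98 in 4 of the 5 untreated 15-cycle lists, STAT5B and CCND2 are mostly grey, and the H3K27me3 rows are grey except at CCND2 and in 1 list.

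Starts that were marked together were compared by the share of lists with both among lists with either. PIM1 and the downstream start of CCND3 shared all 24 of their lists. CISH and STAT5A each shared 23 of 24 with each of these, or 95.8%, so that 4 pairs were tied. Starts marked in 23 or 24 of 25 lists must share most of them. The least alike pair was MCL1 and the upstream start of CCND3, with 2 of 18 lists, or 11.1%. All pairs share the same 25 libraries and their depth.

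The 5 H3K27me3 lists marked 0 to 4 of the 10 starts, with a median of 1, or 7 of 50 combinations, while a peak lay in 12.8% of tile and list combinations (11.3% to 16.8% per list). That count is near the genome share, and nothing is read from it. CCND2 was marked in 4 of the 5 lists, by peaks of 530 to 794 bp. The peaks of the lists at 11 cycles overlapped each other, and the others lay elsewhere. The peak spanned -5279 to -4486 bp from the start in the 15-cycle list, -3233 to -2704 with SDS at 11 cycles, -3442 to -2704 with column extraction at 11 cycles, and 1351 to 1946 bp into the gene with column extraction at 13 cycles. A peak in at least 4 of the 5 lists was found in 8.91% of tiles. BCL2L1, MCL1, CISH, STAT5A, STAT5B and the upstream start of CCND3 had no H3K27me3 peak in any list.

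PIM1, SOCS2 and the downstream start of CCND3 each had an H3K27me3 peak in the column list at 11 cycles and in none of the other 4. Those peaks measured 337, 508 and 449 bp and held percentiles of 49.5, 30.4 and 1.41. That list also overlapped a median of 20.4% of the peaks of the 16 downsampled H3K27ac lists, against medians of 4.64% to 9.91% for the other H3K27me3 lists. The part of that overlap in the peaks at these 3 starts was not tested.

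Covered length, the number of bases of a window under peaks, was compared between the 16 H3K27ac and 4 H3K27me3 downsampled lists. At CISH it was 835 to 5235 bp in H3K27ac, with a median of 3331.5 bp, and 0 bp in all 4 H3K27me3 lists. At PIM1 it was 535 to 5283 bp, with a median of 2860 bp, and 0, 337, 0 and 0 bp in H3K27me3. The downstream start of CCND3 had 649 to 5823 bp against 0, 449, 0 and 0 bp. In these 3 windows the groups did not overlap. The share of all tested windows without overlap was not counted, so nothing is read from that number.

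Those differences passed an exact two-sided permutation test over lists with Benjamini-Hochberg adjustment over 38534 windows. Mean covered length at CISH was 3214 ± 1314 bp (SD, n = 16) against 0, adjusted p = 0.000431 by that exact test. PIM1 gave 2968 ± 1493 bp against 84.2 ± 168.5 bp (adjusted p = 0.00169, exact permutation). The adjusted p was 0.0112 at the downstream start of CCND3, 0.0144 at BCL2L1, 0.0195 at STAT5A and 0.0201 at SOCS2, by the same permutation test. Thus 6 of 10 starts were higher in H3K27ac, against 5.48% of all tested windows, while 71.7% of windows were higher in H3K27me3 and none of the 10 starts was. MCL1 (adjusted p = 0.194), STAT5B (0.378) and the upstream start of CCND3 (1.0) did not pass the permutation test. CCND2 had 136.9 bp in H3K27ac and 466.2 bp in H3K27me3, with overlapping groups and an adjusted permutation p of 0.145. It passed as higher in H3K27me3 when presence replaced length (adjusted permutation p = 0.0412, with 71.3% of windows higher in H3K27me3) and without ab4729 (0.0346, with 73.8%). With a window of 1 kb on either side, BCL2L1 (adjusted p = 0.199), SOCS2 (0.0593) and STAT5A (0.331) no longer passed the permutation test, and with lists cut to equal size SOCS2 (0.0912), STAT5A (0.152) and the downstream start of CCND3 (0.0774) did not. The shares of windows higher in H3K27ac and in H3K27me3 were 3.87% and 74.0% with 1 kb windows, and 11.6% and 25.6% with lists cut to equal size. SOCS2 also missed the threshold when presence replaced length (adjusted permutation p = 0.0781) and without ab4729 (0.0583).

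**Figure D3:**
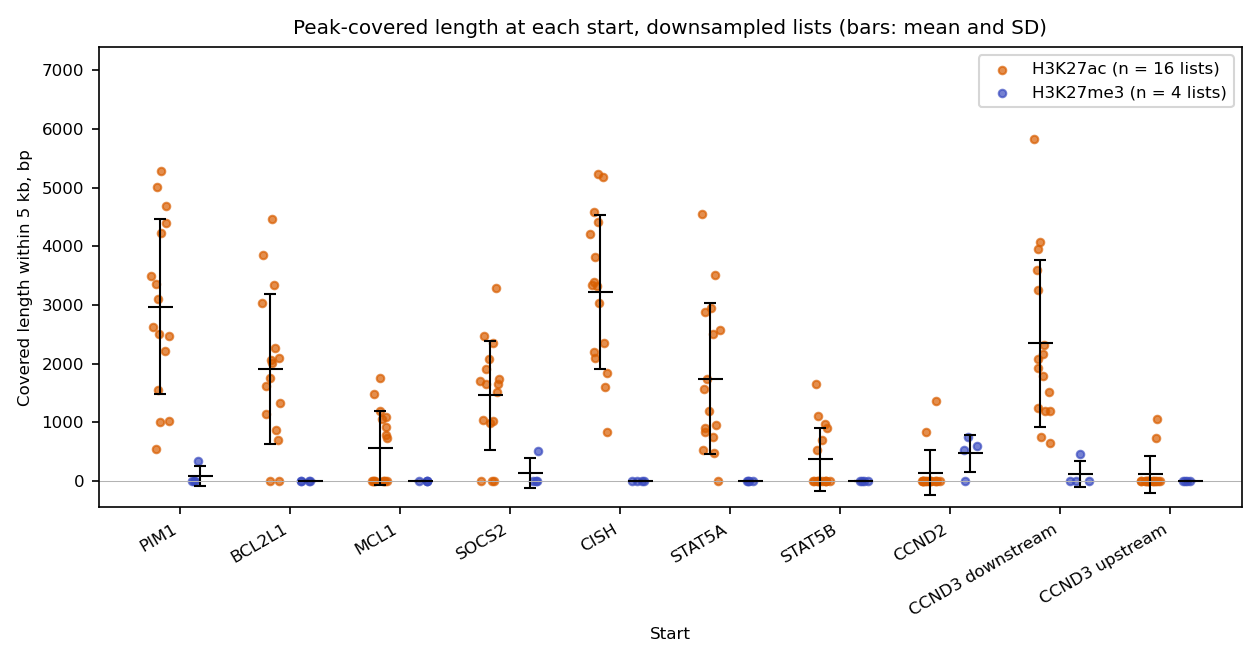
Peak-covered length in bp within 5 kb of each start in the downsampled lists; points are lists (16 H3K27ac, 4 H3K27me3), bars the mean and SD. CISH lies at 835 bp or more in every H3K27ac list and at 0 in every H3K27me3 list, whereas CCND2 shows the larger mean in H3K27me3.

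Among antibodies at matched depth, ab177178 marked 30 of 40 start and list combinations, ab4729 29, Active Motif 26 and Diagenode 23. Over all tiles the shares were 2.72%, 1.95%, 1.62% and 1.65%. The counts per list were 7 to 8 with ab177178, 6 to 9 with ab4729, 5 to 7 with Active Motif and 5 to 7 with Diagenode, and these ranges overlapped between all antibodies. All 4 antibodies marked PIM1, CISH and the downstream start of CCND3 in 4 of 4 lists. The share of tiles with a peak in all 16 of these lists was not counted. ab177178 and Diagenode also marked BCL2L1 in every list. The Diagenode lists had no peak at STAT5B, CCND2 or the upstream start of CCND3, and the ab177178 lists had at least 1 at every start. Tiles with a peak were 2.56% to 3.09% in the ab177178 lists and 1.13% to 2.17% in the Diagenode lists.

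The 2 Diagenode dilutions were set side by side at 15 cycles without TSA, where each was 1 library and no test was made. Covered length was longer at 1/50 than at 1/100 at 9 of the 10 starts, and 0 bp in both at the upstream start of CCND3. The share of all tiles that were longer at 1/50 was not counted. CISH had 8127 and 4694 bp, SOCS2 5281 and 1066, PIM1 6308 and 5473, and STAT5A 4559 and 4212. STAT5B and CCND2 had 3912 and 2394 bp at 1/50 and no peak at 1/100. The whole list covered 31.9 Mb at 1/50 and 12 Mb at 1/100, and read depth is unknown for either.

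TSA was compared with no TSA in 4 pairs at 15 cycles, matched in antibody, dilution and extraction. Covered length at PIM1 was 2268 with TSA and 3313 bp without in the ab177178 pair, 3909 and 6400 in the ab4729 pair, 3261 and 5473 in the Diagenode pair at 1/100, and 3879 and 6308 in that at 1/50. CISH gave 1825 and 4442 bp, 4794 and 8989, 0 and 4694, and 5874 and 8127 in the same order. STAT5A gave 1291 and 7846 bp, 1618 and 4462, 1077 and 4212, and 2450 and 4559. The TSA value was the lower one in all 4 pairs at these 3 genes, and also at BCL2L1 and MCL1. How many of the 12785 tested windows were lower in all 4 pairs was not counted.

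The mean difference with TSA was -2044 ± 677 bp at PIM1, -1733 ± 936 bp at BCL2L1, -2304 ± 2084 bp at MCL1, -3440 ± 1187 bp at CISH and -3661 ± 1977 bp at STAT5A (SD, n = 4, exact sign-flip permutation p = 0.125, the smallest that 4 pairs allow). The mean over all tested tiles was also below 0, at -1177 bp, and the adjusted p was 0.39 at each of these starts. With windows of 1 kb on either side the mean difference at BCL2L1 was 50.8 bp, of the opposite sign. No window of 12785 passed the exact sign-flip test (0.0%), and none had an unadjusted p under 0.05. MCL1 had no peak with TSA in 3 of 4 pairs, where the untreated lists covered 4658, 1030 and 3389 bp. STAT5B had a peak without TSA and none with it in 3 pairs, and the reverse with Diagenode at 1/100, where the TSA list covered 1051 bp. SOCS2 was lower in 3 pairs and higher with ab177178, 795 against 0 bp.

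At the upstream start of CCND3 covered length was higher with TSA in 3 of 4 pairs, 2796 against 2534 bp with ab4729, 1065 against 0 with Diagenode at 1/100 and 1628 against 0 at 1/50. With ab177178 it was 0 against 2968 bp, and the mean difference over the 4 pairs was -3.25 bp (exact permutation p = 1.0). Without ab177178 that mean was 985 bp. The TSA lists also covered less of the genome. The ratio of covered length with TSA to without was 0.314 over the 10 windows and 0.23 over the whole list in the ab177178 pair, and 0.466 and 0.584 in the ab4729 pair. With Diagenode it was 0.521 and 0.483 at 1/100, and 0.563 and 0.255 at 1/50. The windows thus kept a larger share of their covered length than the list in 3 pairs and a smaller one with ab4729, a difference that was not tested.

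**Figure D4:**
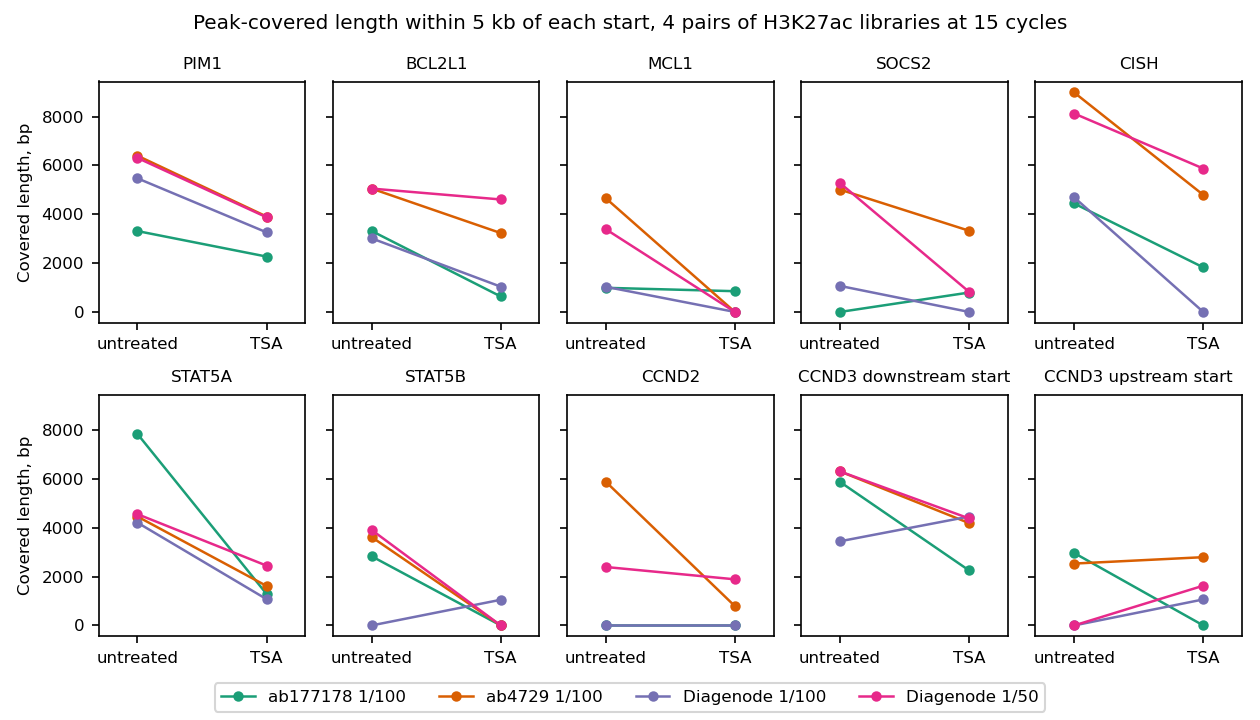
Peak-covered length in bp within 5 kb of each start without and with TSA, in 4 pairs of H3K27ac libraries at 15 cycles joined by lines (at CCND2 the ab177178 and Diagenode 1/100 pairs both lie at 0). The TSA point is the lower one in all 4 pairs at PIM1, BCL2L1, MCL1, CISH and STAT5A, and the higher one in 3 at the upstream start of CCND3. The mean difference over all tested tiles was -1177 bp.

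Extraction was compared in 8 H3K27ac pairs of downsampled lists, 4 antibodies at 11 and 13 cycles. CISH covered 835 bp with the column and 5177 bp with SDS for ab177178 at 11 cycles, and the column value was the lower one in 6 of 8 pairs. Its mean difference was -938.5 ± 1578 bp (SD, n = 8, exact permutation p = 0.102). With windows of 10 kb on either side it was 56.8 bp, of the opposite sign. STAT5B had a peak in 5 SDS lists and 1 column list, with a mean difference of -456.5 ± 635.1 bp (exact permutation p = 0.125). CCND2 had a peak in 2 column lists and in no SDS list, and the upstream start of CCND3 in 2 SDS lists and no column list (p = 0.5 for each, exact permutation). MCL1 was covered more with the column in 4 pairs, less in 2 and equally in 2. All 10 starts had an adjusted p of 1.0 in the exact sign-flip permutation test, which called 0 of 10694 windows (0.0%), with 143 windows (1.34%) at an unadjusted p under 0.05. The smallest p that 8 pairs allow in that test is 0.00781. A call after adjustment would need many windows at that value, so no absence of an effect is read from this.

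Cycle number was compared in the same lists, as 8 pairs. CISH covered 3656 bp at 13 cycles and 2772 bp at 11 on average, and was higher at 13 cycles in 7 of 8 pairs. The mean difference of 884.2 ± 1217 bp had an exact sign-flip permutation p of 0.0391, and 0.891 after adjustment over all windows. An unadjusted p under 0.05 was found in 304 of 10694 windows (2.84%), and no window passed after adjustment (0.0%). Here too the sign-flip test with 8 pairs allows no p below 0.00781. PIM1 was higher at 13 cycles in 6 of 8 pairs, by a mean of 1058 ± 2390 bp (exact permutation p = 0.25). The sum over the 10 windows in the ab177178 lists was 28776 bp at 13 cycles and 17255 bp at 11 with SDS, and 22922 and 10241 bp with the column, ratios of 1.67 and 2.24, while the ratios for the whole lists were 1.01 and 1.21. Diagenode with the column also had a larger ratio in the windows, 1.05, than in the list, 0.474. Diagenode with SDS was higher at 13 cycles in both measures, with ratios of 2.09 and 1.89, and Active Motif with the column was lower in both, at 0.428 and 0.422. Differences between these ratios were not tested.

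MACS2 lists were available for the 6 untreated libraries at 15 cycles. In the 5 H3K27ac libraries MACS2 marked 32 of 50 start and list combinations and SEACR 35 of 50, against 3.38% and 3.64% of tile and list combinations. In ab4729 both callers marked all 10 starts, and in Active Motif both marked BCL2L1 alone. MACS2 did not mark MCL1 in the Diagenode library at 1/100, nor STAT5B and the upstream start of CCND3 in the ab177178 library, all of which SEACR marked. MACS2 peaks were narrower, with a median CISH width of 2540 bp in 4 libraries against 12396 bp by SEACR in the same 4. In the H3K27me3 library MACS2 had a peak at CCND2, of 408 bp, and at no other start, as did SEACR.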

How the data were processed

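The submitters' processing notes name hg19, SEACR, MACS2, Bowtie2 2.2.9, Trim Galore 0.6.6, SAMtools 1.3.1, bedtools 2.25.0 and Picard 2.6.0, with no role for each. Every library had its own list, called without duplicates, per the labels. SEACR settings and read depths were not stated. Each deposited SEACR row holds 2 signal values from the authors' run, the total and the maximum of a peak, and the total was used for ranks. Each deposited MACS2 row holds a score, the fold enrichment (a ratio) and the −log10 of p and of q. Of these, only the −log10 q-value was used here, for ranks.

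Autosomes 1 to 22 and chromosome X were analysed. The members, lists and tests were chosen with earlier results of these data known. Windows of 5 kb on either side of each start, and 303463 genome tiles of the same length, 10001 bp, were scored for peak overlap of at least 1 bp and for covered length in Python 3.11.15 with numpy 2.4.6, pandas 2.3.3 and scipy 1.17.1. Tiles with a peak in at least 3 lists entered the tests, which were exact two-sided permutation tests over lists or sign flips over matched pairs, adjusted by the Benjamini-Hochberg method at 0.05. The tests were checked on simulated data. All 9 genes are named by rule, with the 3 most alike pairs of starts, ties with the third included, and the least alike pair. Alternatives varied the window, list size, lists, antibodies, caller, measure and tile filter. Further JAK-STAT and BCL2 family genes were not analysed here, since no gene table of hg19 was used, and promoter sequences and neighbouring genes come from RefSeq on GRCh38.p14.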

Additional observations from a re-analysis of the deposited data

How the results depend on the processing

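No paired analysis was possible because every condition has 1 library and the labels give no replicate numbers, which means pairing by replicate. The pairs in the TSA, extraction and cycle comparisons match libraries by antibody and protocol. Of 109 values that sum up a comparison, 96 were scored as unchanged, and of 360 values at single starts 321 were. Medians and means counted as unchanged within the SD over lists, and single starts when sign and side of the threshold stayed. Counts of passing starts did when they stayed similar, as when SOCS2 alone missed the threshold without ab4729. Many of the 96 were counts of starts passing the sign-flip tests, at 0 throughout. With TSA they could not be otherwise, since 4 pairs allow no sign-flip p below 0.125, so no stability is read from these totals. The cause of the changes below was not tested, apart from the fewer bases or peaks that a narrower window or shorter list holds by construction. Without the untreated Active Motif list at 15 cycles, or with untreated lists only (both settings chosen after the data were seen), the median number of marked starts stayed at 7.

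The median number of starts marked by H3K27ac was 5 with lists cut to the shortest and 3 where a peak had to cover the start. Starts higher in H3K27ac numbered 3 with 1 kb windows (3.87% of all windows) and 3 with lists cut to the shortest (11.6%), and 1 start, CCND2, was higher in H3K27me3 when presence was tested (adjusted p = 0.0412, 71.3% of windows) or ab4729 was left out (adjusted p = 0.0346, 73.8%), both by exact permutation. Mean starts marked per list with lists cut to the shortest were 5 for ab177178, 5.25 for ab4729, 5.75 for Active Motif and 4.75 for Diagenode, a different order from that of the whole lists. With 1 kb windows they were 6.25 for ab177178, 5.75 for ab4729, 4.75 for Active Motif and 4 for Diagenode.

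Differences that changed sign were all short of the threshold. CCND2 became 22.6 bp higher in H3K27ac over all 26 untreated lists and 90.1 bp higher with 1 kb windows. With TSA the upstream start of CCND3 gave 0.25 for presence, 62.8 bp with 1 kb windows, 738.8 bp with pairs of equal size and 985 bp without ab177178, and BCL2L1 gave 50.8 bp with 1 kb windows. For column minus SDS, 1 kb windows gave -46.2 bp at PIM1, -164.6 bp at SOCS2 and 99.1 bp at the downstream start of CCND3, and 10 kb windows gave 56.8 bp at CISH. Presence gave -0.125 at SOCS2, and pairs of equal size gave -205.9 bp at STAT5A. Leaving out ab4729 gave -77.3 bp at PIM1, -2.17 bp at SOCS2 and -319.2 bp at STAT5A. Leaving out ab177178 gave 673 bp at the downstream start of CCND3, leaving out Active Motif -203.2 bp at STAT5A and leaving out Diagenode -140.2 bp at SOCS2. For 13 minus 11 cycles, the downstream start of CCND3 gave -345.4 bp with 1 kb windows and -12.0 bp without Diagenode. Pairs of equal size gave 235.2 bp at BCL2L1 and 103.9 bp at CCND2. Without ab4729 the values were 569.0 bp at BCL2L1, 84.2 bp at STAT5B and 138.5 bp at CCND2, and without Active Motif 189.2 bp at BCL2L1, 296 bp at MCL1 and 104.7 bp at SOCS2.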
